A study of Mus musculus with 14 samples.

Results

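Brain maturation from mid-gestation to the day before birth was described from RNA of whole brains of male mouse fetuses at embryonic days E13.5 and E18.5. The genes described are those whose mean normalized count reached 10 at one age or both, which were 19461 of the 41934 genes listed at both ages. For each of them the mean over all fetuses at E18.5 was set against the mean over all fetuses at E13.5, whatever the genotype. At E13.5 the mean covered 6 fetuses, 4 Dio3+/+ and 2 Dio3-/-, and at E18.5 it covered 8 fetuses, 3 Dio3+/+ and 5 Dio3-/-. The fetuses were littermates from matings of heterozygous mice on a C57BL/6J background. Dio3 encodes the type 3 deiodinase, which inactivates thyroid hormones, and the Dio3-/- fetuses carry a mutation that inactivates the enzyme but still make the Dio3 mRNA. The mutation was constitutive, so a Dio3-/- brain developed in a fetus without the enzyme in any tissue.

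In the days between both ages the mouse forebrain passes from a tissue rich in dividing radial glia to one in which most neurons of the cortex have been born. Radial glia line the ventricles, give rise to neurons directly or through intermediate progenitors, and near birth turn to making astrocytes and oligodendrocyte precursors. New neurons migrate, extend axons and dendrites and start to build synapses, and blood vessels, choroid plexus and meninges mature around them.

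The values given below are scaled mean counts: the mean normalized count of each age, multiplied by a factor that makes the 2 ages sum to the same total over all genes. A log2 ratio is the log2 of the scaled mean count at E18.5 over that at E13.5, and a gene was called higher or lower when this ratio reached 2-fold. Each age is a single mean with no value per fetus, so there is no replicate check, no error and no test of any ratio in what follows, and the counts of genes are descriptions of 2 pools. The ages were normalized apart, and the share of Dio3-/- fetuses differed between them, so age and genotype share cannot be told apart for a gene that responds to the mutation. The study reported such responses among cell cycle genes and for Meg3, Dlx1, Dlx2 and Isl1 at E13.5. At E18.5 it reported them among glycolysis genes and for Gfap and Nrgn. Libraries came from 2 sequencing batches with different kits for ribosomal RNA removal, and the batch of each fetus is not given in the sources used here. The lncRNA Gm26917 took 4.62% of the E13.5 total and 2.22% of the E18.5 total, and transcripts of the mitochondrial genome took 1.31% and 1.99%. Y-linked genes were present at both ages, with scaled mean counts of Ddx3y of 1126 at E13.5 and 1411 at E18.5. Xist, the RNA that silences one X chromosome in females, was counted too, at 4880.1 at E13.5 and 2778 at E18.5, and what made up that count was not tested. In bulk RNA, fewer cells of a type and less RNA per cell cannot be told apart.

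A ratio could be taken for 19455 of the 19461 genes. Of these, 2621 were higher by at least 2-fold at E18.5, which is 13.47% of the genes, and 1482 were lower by at least 2-fold, which is 7.62%. These shares are the background for the gene groups below. The distribution was skewed: 8931 genes lay above and 10524 below an equal level, yet 831 genes were at least 4-fold higher against 293 at least 4-fold lower. The median log2 ratio was -0.07, the 5th percentile -1.27 and the 95th percentile 1.87, and 60.2% of genes stayed within 1.5-fold. Mean counts reached the minimum at both ages for 17794 genes, at E13.5 alone for 861 and at E18.5 alone for 806. Slc5a8 lay just inside the minimum with 10.0008 at E18.5 before scaling, and Gm45047 just outside with 9.99572. Markers of developing neurons were abundant at both ages: Map1b, a microtubule-associated protein of growing axons, stood at 155682 at E13.5 and 188321 at E18.5, and Dcx, which marks migrating neurons, at 53318 at E13.5 and 61427 at E18.5.

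**Figure D1:**
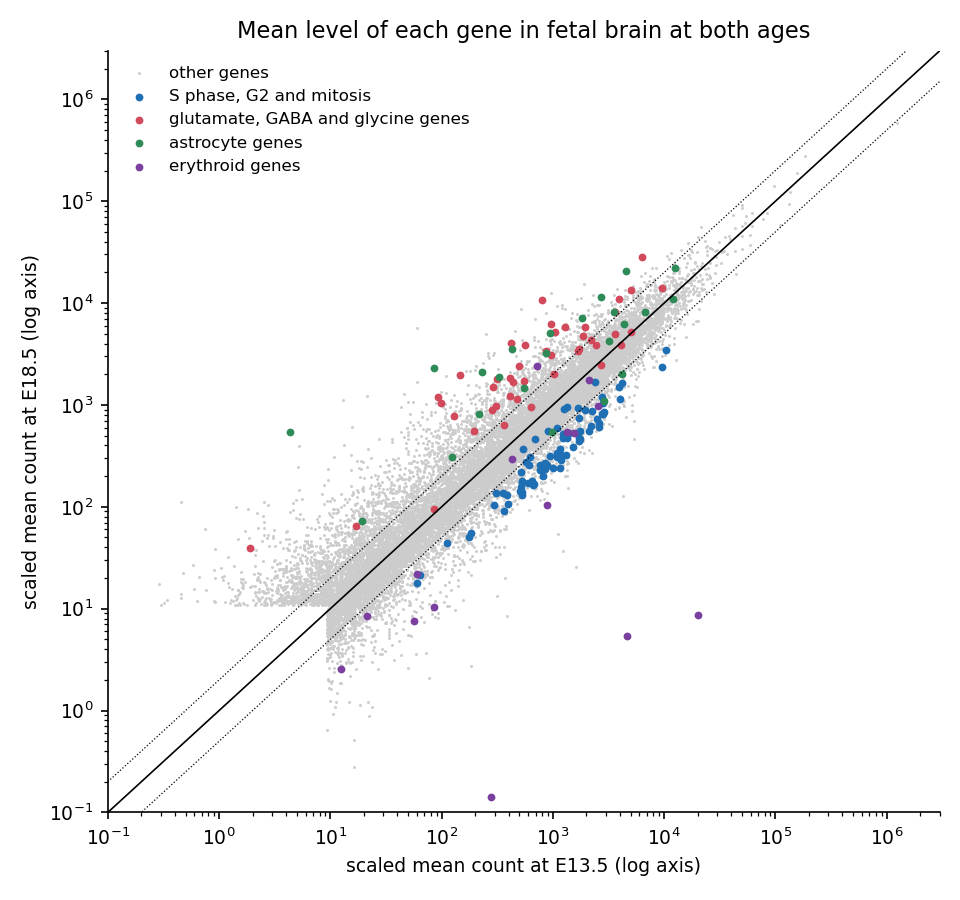
Scaled mean count of each of the 19455 genes at E13.5 (x axis) and E18.5 (y axis), both on log axes; the solid line marks equal levels and the dotted lines 2-fold, and coloured points are members of the named lists. Cell division genes (blue) lie below the diagonal, such as Cdc20 with 1161 at E13.5 and 241 at E18.5, receptor genes (red) and astrocyte genes (green) lie mostly above it, and 3 globins lie far below.

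Among protein-coding genes with a scaled mean count of at least 1000 at one age, the highest ratio was that of Ptgds, the prostaglandin D2 synthase of the leptomeninges (chr2:25466709-25470046, GRCm38). Its level was 60.6 at E13.5 and 5668 at E18.5, a 93.6-fold difference. Thy1, a surface glycoprotein of maturing neurons (chr9:44043384-44048579), followed with 13.1 at E13.5 and 1125 at E18.5, 85.9-fold higher. Gda, the guanine deaminase cypin that shapes dendrites, stood at 21.5 at E13.5 and 1231 at E18.5. These 3 genes were low in the E13.5 pool and reached over 1000 in the E18.5 pool. The next 12 had log2 ratios between 3.75 and 4.79 and included Mal2, Sla, Aqp4, Slc6a7, Caln1, Ccn3, Dync1i1, Hepacam, Tmem151a, Gabra5 and Grm5. They hold astrocyte end-foot and adhesion proteins (Aqp4, a water channel, and Hepacam), a brain proline transporter (Slc6a7), the dynein chain of neurons (Dync1i1) and 2 receptor subunits (Gabra5 and Grm5).

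At the other end stood embryonic globins and factors of early neural development. Hbb-y, the embryonic beta-like globin, was at 19967 at E13.5 and 8.60 at E18.5, and Hba-x, the embryonic alpha-like globin, at 4662 at E13.5 and 5.44 at E18.5. Tal2, a factor of midbrain GABAergic neurons, was at 1609 at E13.5 and 25.5 at E18.5, 63.01-fold lower. Dbx1, which patterns progenitors of the ventral neural tube and the pallial edge, had a log2 ratio of -5.09. Robo3, the receptor that lets commissural axons reach the midline, was at 4295 at E13.5 and 128 at E18.5. The remaining 10 were Hmga2, Col2a1, Nhlh1, Igf2bp1, Irx3, Neurog2, Rhbdl3, Hist1h3c, Phf21b and Hist1h1b, with log2 ratios from -4.35 to -2.57. Among these 15 genes were globins, factors of the midbrain and hindbrain, neurogenic factors, histones and Col2a1, the collagen of cartilage. Of the long noncoding RNAs with at least 500 at one age, those with the highest ratios were B230209E15Rik (5.29), 9130024F11Rik (3.52), Dbpht2 (2.75), Bc1 (2.44) and C230004F18Rik (2.39). The lowest were C130021I20Rik (-1.95), Rmst (-1.62), Miat (-1.53), 4930516B21Rik (-1.40) and Six3os1 (-1.31). Bc1 is a dendritic RNA of neurons, and Rmst and Miat are RNAs of neural progenitors and early neurons.

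Gene lists were then read against the background. Of 43 lists, 10 had at least 50% of their members 2-fold higher and 11 had at least 50% of their members 2-fold lower. The lists were chosen with earlier results of these data known, so these counts describe the chosen lists alone.

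**Figure D2:**
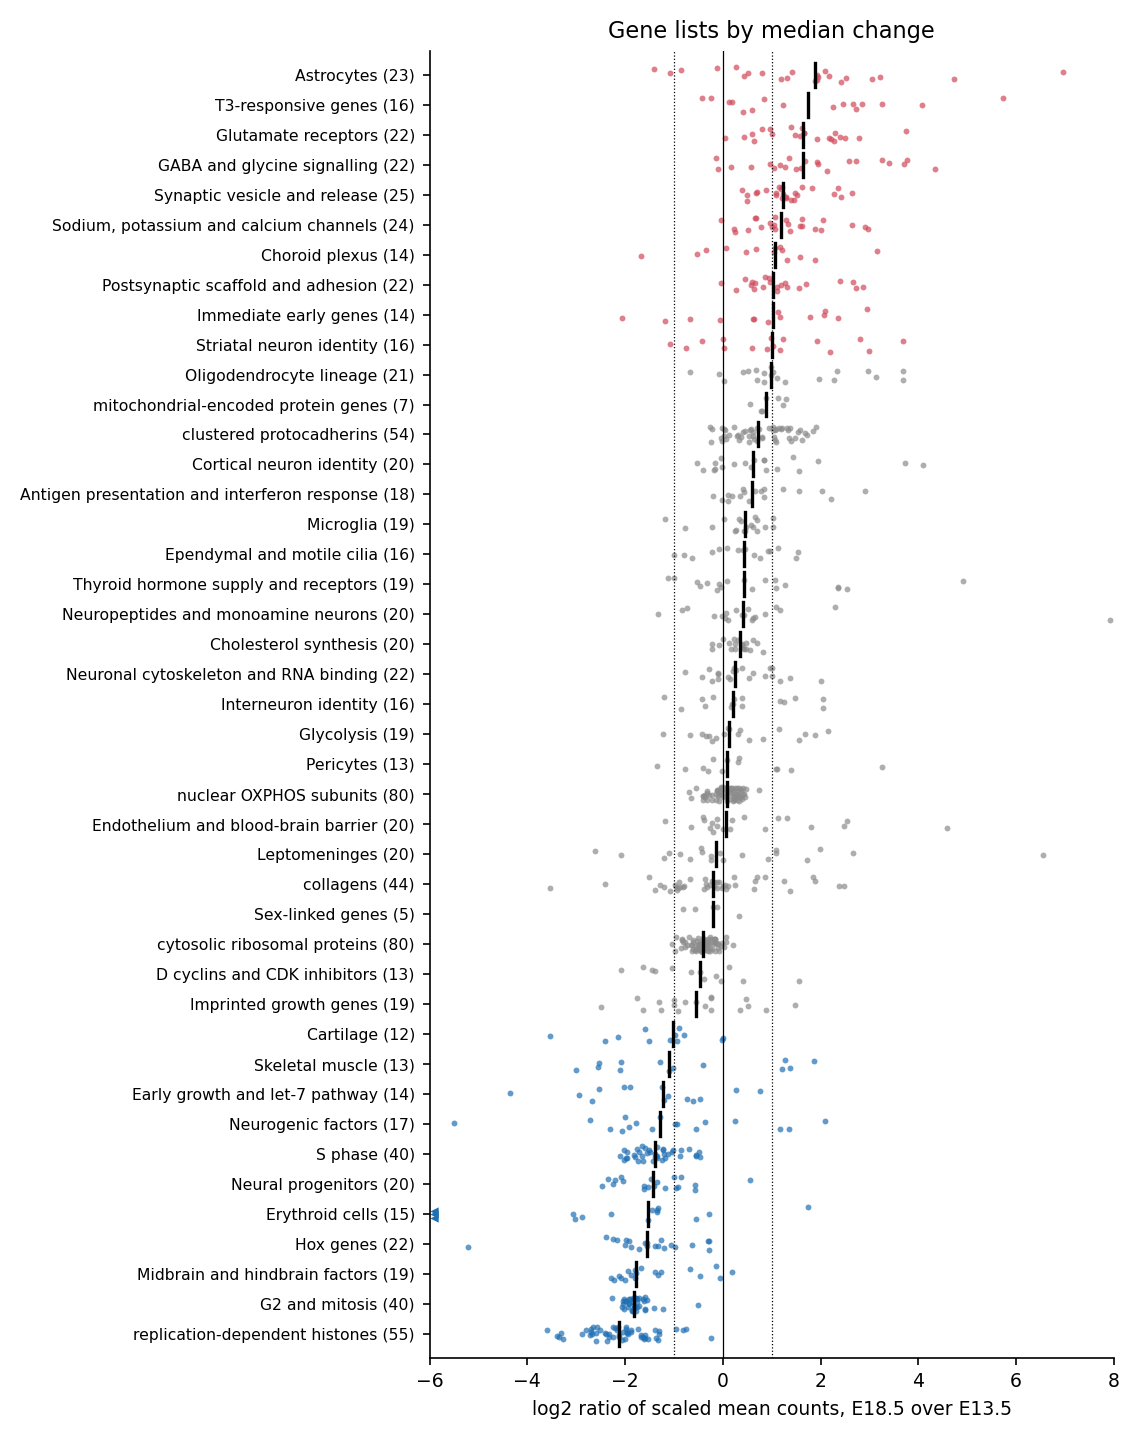
Log2 ratio of E18.5 over E13.5 (x axis) for the members of 43 gene lists, one point a gene, with the list median as a black bar and the number of members with a ratio in brackets; dotted lines mark 2-fold and arrowheads at the left edge are 3 globins below -6. Red lists have at least 50% of members 2-fold higher, blue lists at least 50% 2-fold lower, and the medians run from -2.13 for histones to 1.90 for astrocytes.

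Genes of cell division were lower together. All 40 genes of the S phase list, which copy DNA or make its building blocks, were lower at E18.5, 33 of them by at least 2-fold, and the median log2 ratio was -1.39. Mcm2, a subunit of the replicative helicase, had the lowest ratio of the list with 2594 at E13.5 and 602 at E18.5. Mcm3 of the same ring was at 1733 at E13.5 and 447 at E18.5, and the replication clamp Pcna at 1946 at E13.5 and 895 at E18.5. Rrm2, the regulated subunit of ribonucleotide reductase, was at 2792 at E13.5 and 808 at E18.5. The members nearest to an equal level were Dut (-0.47) and Rfc2 (-0.48).

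The mitotic genes had lower ratios still, within a narrower range apart from 1 gene. Of 40 genes of G2 and mitosis, 39 were lower by at least 2-fold, with a median log2 ratio of -1.81. Cdc20, which activates the anaphase-promoting complex, was at 1161 at E13.5 and 241 at E18.5, and Plk1, the polo kinase of mitotic entry, at 1002 at E13.5 and 241 at E18.5. Top2a, the topoisomerase that untangles chromosomes, was at 9567 at E13.5 and 2343 at E18.5, and Mki67, the proliferation marker, at 10484 at E13.5 and 3490.2 at E18.5. The exception was the ubiquitin ligase G2e3, at 2392 at E13.5 and 1675 at E18.5. Summed over the list, scaled mean counts were 71456 at E13.5 and 21826 at E18.5. None of these genes was under the minimum at E18.5.

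Replication-dependent histones, which are made in S phase to pack new DNA, had the lowest median of any list, -2.13, with 51 of 55 genes lower by at least 2-fold. Hist1h2ag had the lowest ratio (-3.59) and Hist3h2a the highest (-0.24). Histone genes have near-identical copies, so counts of single members are uncertain, while the sum over the list was 97528 at E13.5 and 28686 at E18.5. These RNAs mostly lack a poly(A) tail and the libraries were made from RNA depleted of rRNA rather than selected for poly(A).

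The regulators of the G1 phase were split. Cyclin D1 (Ccnd1) was at 3906 at E13.5 and 924 at E18.5, its kinase Cdk4 at 9532 at E13.5 and 3626 at E18.5, and Cdkn1c, an inhibitor that newborn neurons use to leave the cycle, at 5548 at E13.5 and 1797 at E18.5. Cdkn1a, the inhibitor p21, was the one member of 13 that was higher by at least 2-fold (323 at E13.5 and 951 at E18.5), and 5 were lower by that much. The inhibitor Cdkn1b and the pocket protein Rb1 had log2 ratios of -0.03 and -0.13.

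The promoters of the division genes share short elements, and 4 windows are shown because they hold them. E2F factors switch on S phase genes through E2F elements, searched here as TTTCGCGC and TTTGGCGC, and mitotic genes are held silent in resting cells through the cell cycle genes homology region (CHR), searched as TTTGAA, often beside CCAAT boxes bound by NF-Y. Both strands were searched in RefSeq windows of GRCm38.p6 from 250 bases before to 50 bases after the start of each gene. The windows below are written in the direction of the gene, with every match to any of these elements in capitals. Clspn and Mcm3 are the S phase genes with the lowest ratios among those with an E2F match, and Cdc20 and Plk1 the mitotic genes with the lowest ratios among those with both a CHR and a CCAAT match.
Clspn, chr4:126556730-126557029, plus strand: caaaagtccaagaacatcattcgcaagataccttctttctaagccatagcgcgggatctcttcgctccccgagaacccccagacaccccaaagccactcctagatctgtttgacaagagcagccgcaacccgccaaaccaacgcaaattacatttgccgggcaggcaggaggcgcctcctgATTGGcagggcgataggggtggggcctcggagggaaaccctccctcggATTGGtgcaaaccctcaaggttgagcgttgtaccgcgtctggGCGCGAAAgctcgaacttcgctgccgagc
Mcm3, chr1:20820263-20820562, minus strand: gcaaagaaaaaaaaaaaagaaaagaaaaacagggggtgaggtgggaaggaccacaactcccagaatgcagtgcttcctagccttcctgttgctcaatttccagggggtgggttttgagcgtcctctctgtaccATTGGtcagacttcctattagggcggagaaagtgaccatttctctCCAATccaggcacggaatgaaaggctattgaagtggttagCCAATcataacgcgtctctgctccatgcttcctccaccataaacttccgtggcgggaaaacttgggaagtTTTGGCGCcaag
Cdc20, chr4:118437294-118437593, minus strand: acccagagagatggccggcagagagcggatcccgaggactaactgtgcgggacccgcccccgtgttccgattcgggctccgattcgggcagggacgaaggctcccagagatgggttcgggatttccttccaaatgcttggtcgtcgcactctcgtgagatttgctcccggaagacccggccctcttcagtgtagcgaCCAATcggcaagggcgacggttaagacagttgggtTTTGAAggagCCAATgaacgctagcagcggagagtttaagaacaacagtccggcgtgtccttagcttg
Plk1, chr7:122159185-122159484, plus strand: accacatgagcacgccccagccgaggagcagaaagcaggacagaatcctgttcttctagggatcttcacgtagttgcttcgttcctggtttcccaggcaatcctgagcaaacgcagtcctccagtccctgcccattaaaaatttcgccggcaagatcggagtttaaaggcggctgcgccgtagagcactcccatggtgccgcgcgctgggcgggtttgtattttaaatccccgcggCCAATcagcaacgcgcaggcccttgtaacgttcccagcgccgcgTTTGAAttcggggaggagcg
In the windows of Clspn and Mcm3 a single E2F match lies after the start of the gene, with 2 and 3 CCAAT matches before it. In Cdc20 a CHR match stands between 2 CCAAT matches, the first of which begins 53 bases before the start. Plk1 has 1 CCAAT match 14 bases before the start and 1 CHR match after it.

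Over all 27025 windows, one for each symbol, 0.833% held an E2F match, 18.1% a CHR match and 37.9% a CCAAT match. For the 12933 genes with a ratio these shares were 1.42%, 12.1% and 38.1%. Among 28 S phase genes with a window, 7 held an E2F match (25%), and among 35 mitotic genes 24 held a CHR match (68.6%) and 26 a CCAAT match (74.3%). A CHR and a CCAAT match occurred together in 20 of the mitotic genes and in 7.12% of all windows. The shares also differed along the ratio for genes outside the lists, although cell division genes that the lists do not hold were not taken out. Of 844 genes that were lower by at least 2-fold and belong to neither of these lists, 18.4% held a CHR match, against 11.3% of 10346 genes within 2-fold and 12.6% of 1685 genes that were higher. For CCAAT matches the 3 shares were 45.3%, 38.2% and 32.9%. The median GC content of the windows was 59.7% in the first of these groups, 60.7% in the second and 58.3% in the third. A match is a stretch of letters and does not show that a factor binds there.

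**Figure D3:**
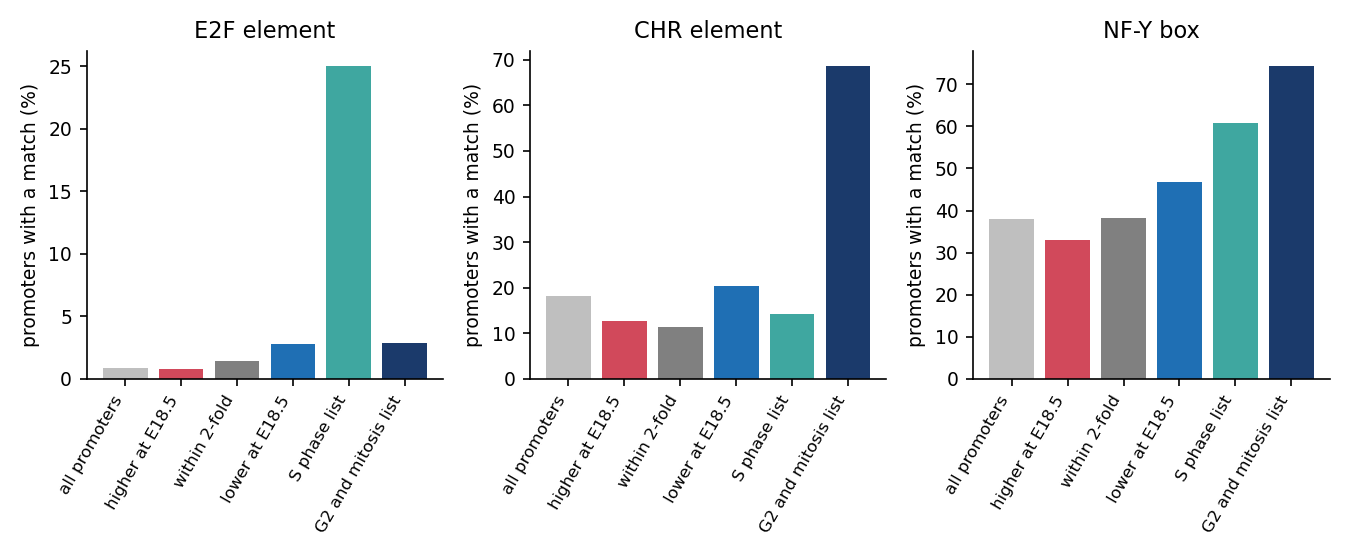
Share of promoter windows (y axis, percent) with a match to an E2F element, a CHR element or an NF-Y box (CCAAT), for all windows, for genes at least 2-fold higher, within 2-fold and at least 2-fold lower at E18.5, and for both cell cycle lists. E2F matches are most frequent in the S phase list (25%) and CHR matches in the G2 and mitosis list (68.6%).

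Genes of neural progenitors were lower as a group. Of 20 members 13 were lower by at least 2-fold and none was higher by that much, with a median of -1.44. Nes, the intermediate filament nestin, was at 12718 at E13.5 and 2756 at E18.5, and Vim, vimentin of radial glia, at 20226 at E13.5 and 6660.3 at E18.5. The Notch ligands Dll1 (-2.04) and Dll3 (-2.25) were lower than the receptors Notch1 (-1.40) and Notch2 (-0.85) in log2 ratio, and the Notch target Hes5 was at 1010.4 at E13.5 and 363 at E18.5. The lowest ratio was that of Tead2, a Hippo pathway factor, at 3403 at E13.5 and 618 at E18.5. Factors of the neural stem cell state differed: Sox3 was at 1373 at E13.5 and 271 at E18.5, the second lowest ratio of the list, while its relatives Sox2 and Sox1 had log2 ratios of -0.91 and -0.57, and Pax6 of -0.57. Fabp7, the brain lipid binding protein of radial glia and astrocytes, went against the list with 5437 at E13.5 and 8032 at E18.5.

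The neurogenic factors were mixed. Of the proneural genes of dividing progenitors Neurog1 was at 384 at E13.5 and 8.53 at E18.5 and Neurog2 at 2231 at E13.5 and 341 at E18.5. Eomes, the factor of intermediate progenitors of the cortex, was within 2-fold (938 at E13.5 and 726 at E18.5). Among genes of postmitotic neurons, Neurod6 was at 1620.1 at E13.5 and 6863 at E18.5, Neurod2 at 1508 at E13.5 and 3883 at E18.5 and Myt1l at 5884 at E13.5 and 13284 at E18.5. In all, 9 of 17 were lower by at least 2-fold and these 3 were higher. Sox11 and Sox4, which act in newborn neurons, had log2 ratios of -0.94 and -0.55, and Myt1 and Neurod4 of -1.92 and -1.78.

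A further group of early genes is known for its control by the let-7 microRNAs. Let-7 RNAs rise as tissues mature and silence growth genes through matches to their seed, bases 2 to 8, in 3′ untranslated ends, while Lin28 proteins block the maturing of let-7 itself. MicroRNAs were not measured here, and let-7a is shown, with its seed in capitals, because genes with matches to it, Hmga2 and Igf2bp1, stand among the lowest ratios. In RefSeq 11 mature mouse microRNAs share this seed, 10 of them named in the let-7 family or as its kin miR-98.
mmu-let-7a-5p: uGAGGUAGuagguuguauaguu
The 4 matches to this seed in the 3′ end of Hmga2 and the first match in those of Igf2bp1, Trim71 and Lin28b are given next in the direction of the mRNA, with the 7 bases that pair with the seed in capitals (GRCm38, minus strand for each of the 4 genes).
Hmga2 site 1, chr10:120364221-120364245: ccgacattcaatttCTACCTCagca
Hmga2 site 2, chr10:120362984-120363008: cccactcctcaataCTACCTCtgaa
Hmga2 site 3, chr10:120362546-120362570: tgatttgcaaggaaCTACCTCcaca
Hmga2 site 4, chr10:120361688-120361712: atcaaaacacactaCTACCTCttaa
Igf2bp1 site 1, chr11:95961775-95961799: ctgtgcgaagtaaaCTACCTCaagg
Trim71 site 1, chr9:114512469-114512493: acattgcctaagtcCTACCTCagct
Lin28b site 1, chr10:45381019-45381043: cccgggcgggaagtCTACCTCatgc
Each of these 4 genes had 4 matches, and they were chosen after their values had been seen. Hmga2, a chromatin protein of young stem cells, was at 1113 at E13.5 and 54.6 at E18.5, and Igf2bp1, which binds and stabilises mRNAs, at 5374 at E13.5 and 697 at E18.5. Trim71, a ubiquitin ligase of early embryos, was at 158 at E13.5 and 27.2 at E18.5. Lin28b was within 2-fold, at 666 at E13.5 and 401 at E18.5, and its relative Lin28a was low at both ages (53.7 at E13.5 and 8.44 at E18.5). In the list of 14 early growth genes 9 were lower by at least 2-fold, with a median of -1.22. Myc (0.75) and Mycn (0.26), which drive growth, went the other way within 2-fold.

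Seed matches were counted in 1 annotated 3′ end for each of 15045 protein-coding genes, a search that was added after the ratios had been seen. Genes with 3 or more let-7 matches numbered 28, with a median log2 ratio of -0.38 and 6 genes lower by at least 2-fold, while the 13464 genes with no match had a median of -0.05. Long 3′ ends hold more matches by length alone, and among 3′ ends of at least 3000 bases the medians were 0.10 for 1784 genes with no match, 0.06 for 489 with 1, -0.14 for 101 with 2 and -0.44 for 20 with 3 or more. The seed of miR-17, a microRNA of dividing progenitors, ran the other way: among 3′ ends of that length the medians were 0.05 for 1519 genes with no match and 0.40 for 39 with 3 or more. Length still differed within this class. For let-7 the median length was 3949 bases with no match and 5565.5 with 3 or more, and for miR-17 it was 3907 and 7290.
mmu-miR-17-5p: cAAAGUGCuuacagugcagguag
For the other 6 seeds searched, those of miR-9, miR-125b, miR-29a, miR-128, miR-153 and miR-137, the medians of long 3′ ends with 3 or more matches lay between -0.07 and 0.29. The highest was that of miR-137, 0.29 for 23 genes against 0.07 for 1740 with no match. The lowest was that of miR-9, -0.07 for 42 genes against 0.08 for 1569 with no match. The differences are small beside the spread of ratios over all genes, and genes of one family share sites.

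Synaptic genes stood higher at E18.5. All 25 genes of the synaptic vesicle and its release machinery were higher, 19 of them by at least 2-fold, with a median of 1.24. Snap25, part of the SNARE complex that fuses vesicles, was at 1959 at E13.5 and 5996 at E18.5, and the calcium sensor Syt1 at 4413 at E13.5 and 11621 at E18.5. The vesicle coat proteins Syn1 and Syn2 were at 2779 at E13.5 and 7781 at E18.5 and at 766 at E13.5 and 3729 at E18.5, so that Syn2 had the higher ratio of this pair. Sv2b (2.42) exceeded its relative Sv2a (0.68) in ratio in the same way. Bsn, a scaffold of the active zone, had the lowest ratio of the list (0.38).

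On the other side of the synapse, 11 of 22 scaffold and adhesion genes were higher by at least 2-fold and none was lower by that much. Dlg2, the scaffold PSD-93, was at 1217 at E13.5 and 8898 at E18.5, and Nrgn, a calmodulin-binding protein of dendritic spines, at 249 at E13.5 and 1648 at E18.5. The study reported more Nrgn mRNA in Dio3-/- than in Dio3+/+ brains at E18.5, so the Nrgn ratio mixes age with genotype share. Dlgap1, which links Dlg and Shank scaffolds, was at 683 at E13.5 and 4319 at E18.5. The adhesion molecule Nlgn2 of inhibitory synapses was level at 9430.2 at E13.5 and 9230.5 at E18.5.

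The receptors for glutamate had a higher median than the scaffolds, 1.64 against 1.04, with all 22 genes higher and 16 by at least 2-fold. The metabotropic receptors ranged widely: Grm5 had the highest ratio of the list, with 803 at E13.5 and 10828 at E18.5, Grm3 was at 561 at E13.5 and 3897 at E18.5 and Grm4 within 2-fold (0.60). Of the NMDA receptor subunits the obligatory Grin1 was at 499 at E13.5 and 2405 at E18.5 and the fetal Grin2b at 6270.3 at E13.5 and 28417 at E18.5. The AMPA subunit Gria1 was at 1274 at E13.5 and 5881 at E18.5, and Gria2, which limits calcium entry, at 5061 at E13.5 and 13333 at E18.5. The 2 smallest ratios were those of kainate receptor subunits, with Grik5 at 0.05 and Grik3 at 0.44.

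Of 22 genes of GABA and glycine signalling 17 were higher by at least 2-fold. Gabra5, the alpha subunit of extrasynaptic receptors in the hippocampus, was at 145 at E13.5 and 1979 at E18.5, and Gabrg3 at 92.5 at E13.5 and 1208 at E18.5. Gabrd had the highest ratio (4.35), with 1.91 at E13.5 and 39.1 at E18.5, below the minimum at the earlier age. Gad1, which makes GABA, was at 1859.7 at E13.5 and 4730.0 at E18.5, while Gad2, the form tied to nerve endings, was level at 4090.0 at E13.5 and 3843 at E18.5.

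Most ion channel genes were higher too. In the list of 24 channel genes 16 were higher by at least 2-fold and none was lower by that much. The pacemaker channel Hcn2 was at 199 at E13.5 and 1243 at E18.5, and Kcnd2, an A-type potassium channel of dendrites, at 1034 at E13.5 and 4270.4 at E18.5. Kcnq3, a subunit of the M channel, had a log2 ratio of 1.62. Cacna1g, a T-type calcium channel, was level (-0.03).

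Genes of the neuronal cytoskeleton and of neuronal RNA binding stayed closer to an equal level, with a median of 0.26 and 5 of 22 higher by at least 2-fold. The pan-neuronal tubulin Tubb3 was at 34509 at E13.5 and 32104 at E18.5. Mapt, the axonal protein tau, was at 21603 at E13.5 and 56023 at E18.5, and Nefh, the heavy neurofilament of mature axons, at 131 at E13.5 and 531 at E18.5. Ina, the early neurofilament internexin, had the lowest ratio (-0.77). The synaptic, receptor and channel lists had higher medians than this list of genes that neurons already express when young. Counts of 2-fold changes for this list depend on the scaling, as 3 rather than 5 were higher when only protein-coding totals were made equal.

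Markers of neuron classes were uneven. Of 20 cortical genes 6 were higher by at least 2-fold and none was lower by that much. Mef2c, an activity-dependent factor, was at 957 at E13.5 and 12622 at E18.5. The deep layer factor Bcl11b was within 2-fold (6866 at E13.5 and 10636 at E18.5), and Tbr1 of layer 6 was at 2198 at E13.5 and 4732 at E18.5. Cux1, an upper layer factor also present in progenitors, was lower within 2-fold (-0.40).

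In the striatal list 8 of 16 were higher by at least 2-fold. They included the phosphatase inhibitor DARPP-32 (Ppp1r1b, 23.3 at E13.5 and 299 at E18.5) and the dopamine receptors Drd1 (50.01 at E13.5 and 353 at E18.5) and Drd2 (97.00 at E13.5 and 372 at E18.5). The fate factors Ebf1 and Isl1 had log2 ratios of -1.08 and -0.75. In the interneuron list 5 of 16 were higher and 1 lower by at least 2-fold. Nkx2-1, which specifies their progenitors, was at 891 at E13.5 and 387 at E18.5, the migration and fate factor Lhx6 at 461 at E13.5 and 1102 at E18.5, and the late markers Npy and Calb2 at 249 at E13.5 and 1029 at E18.5 and at 320.3 at E13.5 and 1329 at E18.5. Dlx1 and Dlx2, active throughout the lineage, were within 2-fold (0.21 and -0.37).

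Of 20 peptide and monoamine genes that could be measured 4 were higher by at least 2-fold (20%, against 13.47% of all genes). Avp, the hypothalamic hormone vasopressin, was at 0.458 at E13.5 and 111 at E18.5, and Slc6a3, the dopamine transporter, at 22.1 at E13.5 and 108 at E18.5. Th, the first enzyme of dopamine synthesis, was lower within 2-fold (219 at E13.5 and 122 at E18.5), and Cartpt was the one gene lower by at least 2-fold (104 at E13.5 and 41.4 at E18.5). Oxt and Hcrt did not reach the minimum at either age.

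Astrocyte genes had the highest median of the lists, 1.90, with 15 of 23 higher by at least 2-fold. Gfap, the filament of mature astrocytes, was at 4.37 at E13.5 and 542 at E18.5, and the water channel Aqp4 at 86.3 at E13.5 and 2285 at E18.5. The study reported more Gfap mRNA in Dio3-/- than in Dio3+/+ brains at E18.5, so the Gfap ratio mixes age with genotype share. Bcan, a matrix proteoglycan, was at 229 at E13.5 and 2111 at E18.5, Clu at 329 at E13.5 and 1902 at E18.5 and Apoe, the lipid carrier, at 945 at E13.5 and 5059.9 at E18.5. Nfix, a gliogenic factor, was at 4531 at E13.5 and 20502 at E18.5, against a log2 ratio of 0.28 for its relative Nfia, which acts earlier. Fgfr3 (-1.40) and Sox9 (-1.07), both expressed in radial glia already, were lower by at least 2-fold, and the glutamate transporter Slc1a2 was level (-0.12).

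The oligodendrocyte lineage was read by stage. Olig1 was at 165 at E13.5 and 2136 at E18.5, and Gpr17, which marks committed precursors, at 66.9 at E13.5 and 862 at E18.5. The precursor receptor Pdgfra was at 1607 at E13.5 and 3182 at E18.5, just under 2-fold, as was Olig2 (455 at E13.5 and 897 at E18.5), which also marks ventral progenitors. Enpp6, an early sign of differentiation, was at 4.23 at E13.5 and 37.3 at E18.5. Of the myelin genes Mbp was within 2-fold, at 815 at E13.5 and 1300.1 at E18.5, Cnp just past it, at 399 at E13.5 and 813 at E18.5, and Mobp low at both ages, at 5.17 at E13.5 and 25.1 at E18.5. Of 21 genes 10 were higher by at least 2-fold and none was lower by that much, and Opalin was not measured.

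Of 19 microglial genes 16 were higher and 3 lower, with a median of 0.46, against -0.07 over all genes. By at least 2-fold 2 were higher (10.5%) and 1 lower (5.26%), against 13.47% and 7.62% of all genes. The receptor Csf1r was at 577 at E13.5 and 731 at E18.5 and Cx3cr1 at 293 at E13.5 and 353 at E18.5. The complement genes C1qa and C1qc had log2 ratios of 1.04 each. Sall1, a microglial factor that neural progenitors also express, was at 2547 at E13.5 and 1118 at E18.5.

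The endothelial list had a median near 0 (0.07), and its members were spread on both sides. Of the genes that all endothelium expresses, Pecam1 and Cdh5 were level, with Pecam1 at 843 at E13.5 and 782 at E18.5 and Cdh5 at 1858 at E13.5 and 1546 at E18.5. Flt1, a receptor for VEGF, was at 898 at E13.5 and 1958 at E18.5. Among barrier and transport genes Tfrc (-0.41), Slc2a1 (-0.21), Abcg2 (-0.21), Mfsd2a (0.00) and Cldn5 (0.86) were within 2-fold, while the thyroid hormone carrier Slco1c1 was at 218 at E13.5 and 1273 at E18.5, the organic anion carrier Slco1a4 at 24.2 at E13.5 and 135 at E18.5, the junction protein Ocln at 111 at E13.5 and 389 at E18.5 and the efflux pump Abcb1a at 147 at E13.5 and 363 at E18.5. Ly6c1 had the highest ratio, with 4.88 at E13.5 and 117 at E18.5. Plvap, which forms the diaphragms of leaky vessels, was at 311 at E13.5 and 138 at E18.5, the one member lower by at least 2-fold. Higher genes numbered 6 of 20. The pericyte list was mixed, with Rgs5 at 1699 at E13.5 and 4474 at E18.5 and Pdgfrb at 1567 at E13.5 and 1181 at E18.5.

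Choroid plexus, which secretes cerebrospinal fluid, showed 8 of 14 genes higher by at least 2-fold. Ttr, transthyretin, the carrier of thyroxine made there, was at 3747 at E13.5 and 13865 at E18.5, and the tight junction gene Cldn2 at 10.7 at E13.5 and 95.8 at E18.5. Otx2, a choroid plexus factor that also patterns the midbrain, was at 1896 at E13.5 and 594 at E18.5. For motile cilia of ependymal cells 3 of 16 genes were higher by at least 2-fold (18.8%, against 13.47% of all genes). The radial spoke gene Rsph4a had the highest ratio (58.1 at E13.5 and 168 at E18.5), and the cilia master regulator Foxj1 was at 685 at E13.5 and 592 at E18.5. Leptomeningeal genes were split, with 6 higher and 4 lower by at least 2-fold of 20. Ptgds and the GABA carrier Slc6a13 (149.7 at E13.5 and 594 at E18.5) stood higher, and the early mesenchymal factor Twist1 (226 at E13.5 and 36.8 at E18.5) and the collagen Col3a1 (9633 at E13.5 and 4206 at E18.5) lower.

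Genes of tissue at the edge of the dissection and of the hind part of the neural tube moved with age too, and their part in the results was not tested. None of 22 measured Hox genes, which pattern hindbrain and spinal cord, was higher and 17 were lower by at least 2-fold, with a summed level of 4879 at E13.5 and 2312 at E18.5. Hoxb9 had the lowest ratio (77.4 at E13.5 and 2.07 at E18.5), and Hoxa5 was near an equal level (819.6 at E13.5 and 668 at E18.5). Factors of the midbrain and rostral hindbrain were lower in 14 of 19 genes by at least 2-fold. Gata2, a factor of midbrain GABAergic neurons, was at 849 at E13.5 and 174 at E18.5, En2 at 2200.3 at E13.5 and 553 at E18.5 and Pax5, of the border between midbrain and hindbrain, at 2486 at E13.5 and 567 at E18.5. Zic1 was level (-0.05).

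Cartilage and skeletal muscle are tissues around the brain. Col2a1, the collagen of cartilage, was at 5326 at E13.5 and 458 at E18.5, and 6 of 12 measured cartilage genes were lower by at least 2-fold, with summed levels of 13685 and 4972. Sox9, which radial glia express too, is among these 6 and was at 4224 at E13.5 and 2011 at E18.5. The count and the sums are therefore not of cartilage alone. Of 13 measured skeletal muscle genes 8 were lower and 4 higher by at least 2-fold, with a median of -1.11. Their summed levels were 1117 and 1209.6, and the defining factors Myod1 and Myf5 did not reach the minimum. Myh3, the embryonic myosin, was at 123 at E13.5 and 21.2 at E18.5, and Neb, the highest of these genes at E18.5, at 158 at E13.5 and 577 at E18.5. Gh, growth hormone of the pituitary, was listed at 0 at E13.5 and at 1042 at E18.5, and was named after its value had been seen.

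Blood cells showed the switch of globins. Of 15 erythroid genes 12 were lower by at least 2-fold, and 7 of them were under the minimum at E18.5. Hbb-bh1, an embryonic beta-like globin, was at 277 at E13.5 and 0.143 at E18.5, while the adult Hbb-bs was at 2119.5 at E13.5 and 1746 at E18.5. The adult alpha globins Hba-a1 and Hba-a2, whose copies are nearly identical and cannot be told apart with certainty, were at 2523 at E13.5 and 987 at E18.5 and at 1354 at E13.5 and 538 at E18.5. Slc4a1, the anion exchanger of red cells, was at 878 at E13.5 and 104 at E18.5, and Sptb, the spectrin that neurons express as well, was the one gene higher by at least 2-fold (718 at E13.5 and 2422 at E18.5). Globins summed to 0.122% of the E13.5 total and 0.0144% of the E18.5 total.

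The study concerns thyroid hormone, and the genes that supply and read it differed between the pools. Dio2, the type 2 deiodinase that makes the active hormone T3, was at 13.4 at E13.5 and 406 at E18.5, 30.3-fold higher. Dio3 was within 2-fold, at 92.1 at E13.5 and 140.0 at E18.5, and its antisense RNA Dio3os was at 18.52 at E13.5 and 12.9 at E18.5. By qPCR of wild-type brains the study found less Dio3 mRNA at E18.5 than at E13.5. It also reported more Dio3 mRNA in Dio3-/- than in Dio3+/+ brains at each age. The pooled Dio3 values therefore mix age with the share of Dio3-/- fetuses. Counting was done without strand, so reads of Dio3 and Dio3os cannot be told apart where they overlap. Slc16a10, a carrier of T3 and aromatic amino acids, was at 267 at E13.5 and 133 at E18.5. The receptors Thra and Thrb were at 8085 at E13.5 and 17090.1 at E18.5 and at 55.6 at E13.5 and 284 at E18.5. Their partner Rxrg was at 106 at E13.5 and 541 at E18.5 and Rxra at 1321 at E13.5 and 604 at E18.5. The counts of Thra and Thrb are per gene and do not separate isoforms. In all 7 of 19 genes were higher and 2 lower by at least 2-fold, and of the corepressors and coactivators Ncor1 (0.10) and Ncoa2 (-0.03) were level, while Ncoa1 was higher by at least 2-fold (2575 at E13.5 and 6243 at E18.5).

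A list of genes known or reported to respond to T3 or to loss of Dio3 had a median of 1.75, with 9 of 16 higher by at least 2-fold. The list is not independent of these data. Some members, among them Gpr37l1, Slc22a2, Lpl, Sorl1 and Cldn12, were reported by the study as higher in Dio3-/- brains at E18.5, partly from these same libraries. Klf9, a T3-induced factor, was at 129.7 at E13.5 and 1248 at E18.5, and Hr, a corepressor that T3 induces, at 82.4 at E13.5 and 396 at E18.5. Gpr37l1, a receptor of astrocytes, had the highest ratio, with 1.80 at E13.5 and 95.5 at E18.5. Mme was the lowest (646 at E13.5 and 479 at E18.5). The median rested on genes that were scarce at E13.5: with a minimum of 10 at both ages, which leaves out 3 genes, it was 0.84. Since 5 of 8 fetuses at E18.5 but 2 of 6 at E13.5 lacked the enzyme that degrades T3, age and genotype share cannot be told apart for this list.

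Metabolic lists lay nearer to an equal level. In glycolysis 5 of 19 were higher by at least 2-fold, among them Eno2, the neuronal enolase (678 at E13.5 and 3009 at E18.5), Pfkp (2457 at E13.5 and 7876 at E18.5) and Aldoc (867 at E13.5 and 3225 at E18.5), and Hk2 was lower by that much (557 at E13.5 and 237 at E18.5). Gapdh was at 6557 at E13.5 and 5364 at E18.5. The study found glycolysis enriched among genes that differed in Dio3-/- brains at E18.5, so age and genotype share cannot be told apart for this list. None of 20 genes of cholesterol synthesis passed 2-fold, although 17 were higher, up to Mvd (0.83). Of 80 cytosolic ribosomal protein genes 76 were lower, 1 of them by at least 2-fold, with a median of -0.40 and a range from -1.05 (Rps10) to 0.20 (Rpl17). Many ribosomal protein genes have processed copies elsewhere in the genome. Nuclear genes of oxidative phosphorylation centred near an equal level, with a median of 0.08 over 80 genes and none past 2-fold. The 7 measured protein genes of the mitochondrial genome were all higher, from mt-Co1 (0.56) to mt-Nd6 (1.29). The other 6 did not reach the minimum at either age. Of these mt-Co2 and mt-Atp6, which every cell uses, were listed at 0 at both ages, so a listed 0 in these data need not mean that a gene was silent.

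Of 19 imprinted genes, many of which steer fetal growth, 14 were lower. Dlk1, a Notch-like growth regulator of the domain that holds Dio3, was at 799 at E13.5 and 142 at E18.5, and Grb10, an inhibitor of insulin signalling, at 15690.2 at E13.5 and 4660.0 at E18.5. Mest was at 7549 at E13.5 and 3044 at E18.5 and Peg10 at 14978 at E13.5 and 6215 at E18.5, while the noncoding Meg3 was within 2-fold (2565 at E13.5 and 3291 at E18.5). In all 5 were lower and 1, Zim1, was higher by at least 2-fold (664 at E13.5 and 1864 at E18.5). Of 44 collagens 6 were higher (13.6%) and 7 lower (15.9%) by at least 2-fold, against 13.47% and 7.62% of all genes. Fibril-forming Col5a2 was at 2616 at E13.5 and 998 at E18.5, and Col19a1, which neurons express, at 33.99 at E13.5 and 189 at E18.5.

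The clustered protocadherins, which give each neuron a surface identity, differed by cluster. The 13 alpha genes had a median log2 ratio of 1.34 and the 21 beta genes one of 1.02, with 10 and 11 genes higher by at least 2-fold. The 20 gamma genes had a median of 0.10, with 2 higher by that much. The first exons of a cluster join shared exons, so counts of single members of the alpha and gamma clusters are uncertain. Immediate early genes, which neuronal activity induces, were higher by at least 2-fold in 7 of 14, led by Fosl2 (203 at E13.5 and 1566 at E18.5), and Btg2 was lower (1855 at E13.5 and 442 at E18.5). Egr4 of the same class was listed at 0 at E13.5 and at 20.2 at E18.5. Of 18 genes of antigen presentation and the interferon response 5 were higher by at least 2-fold, led by Ifit1 (8.99 at E13.5 and 67.8 at E18.5), and B2m was at 686 at E13.5 and 1086 at E18.5.

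Pairs of related genes give a view that does not depend on how the ages were scaled, since both members are divided by the same factor. In each of 26 pairs 1 gene was set as the one of later or more specialised use. That gene gained on its partner by at least 2-fold in 16 pairs, lost by at least 2-fold in 2 and stayed within 2-fold in 8. The setting is loose for some pairs. Fabp7, set over Fabp5, is a gene of radial glia, and Ccnd2, set over Ccnd1, was lower at E18.5 as Ccnd1 was. The pairs were chosen with earlier results of these data known, so these counts describe the chosen pairs alone. The order of the levels per kb of exon turned over in 5 pairs. The chloride exporter Slc12a5, which makes GABA inhibitory in mature neurons, stood at 261 at E13.5 and 789.9 at E18.5 per kb, and the importer Slc12a2 at 250.5 at E13.5 and 228 at E18.5. Their ratio thus went from 1.04 to 3.46. The sodium channel Scn2a went from 0.378 to 1.27 times the level per kb of the fetal channel Scn3a, and Eno2 from 0.239 to 1.17 times that of Eno1. In both pairs the order turned over. Nefm, a neurofilament, went from 0.435 to 1.49 times Nes, and Dio2 from 0.0507 to 1.01 times Dio3. The share of Dio3-/- fetuses, in which the study reported more Dio3 mRNA, differed between these pools.

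Other pairs kept their order while the gap changed. The vesicular glutamate transporter Slc17a7 of the cortex went from 0.0413 to 0.182 times Slc17a6 per kb. The BAF chromatin complex exchanges subunits when progenitors become neurons, and its neuronal actin-related subunit Actl6b went from 1.61 to 6.19 times Actl6a. Neuronal Ss18l1 gained on Ss18 by 1.27 on the log2 scale, whereas Dpf1 gained on Phf10 by 0.25. Glucose transporter Slc2a3 of neurons gained on Slc2a1 by 1.78, Aldoc on Aldoa by 1.07, and Dnmt3a on Dnmt3b by 1.18. Cyclin Ccnd2 gained on Ccnd1 by 1.05 and Thrb on Thra by 1.27, while Thrb stayed far below Thra per kb with all isoforms counted together.

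Other pairs lay within 2-fold or went the other way. The NMDA receptor subunit Grin2a stood at 0.0685 and 0.0476 times Grin2b per kb, a change of -0.52. Adult Glra1 changed by -1.51 against fetal Glra2, and Camk2a by -1.30 against Camk2b. Neuronal Ptbp2 changed by 0.68 against Ptbp1 while both were lower at E18.5. The pairs Dlg4 and Dlg3, Elavl4 and Elavl1, Fabp7 and Fabp5, and Dpysl2 and Dpysl3 changed by 0.29, 0.20, 0.07 and -0.14. The globins had the widest changes, 8.39 for Hba-a1 over Hba-x and 10.64 for Hbb-bs over Hbb-bh1, and adding 10 to every level brought these to 6.90 and 4.54.

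**Figure D4:**
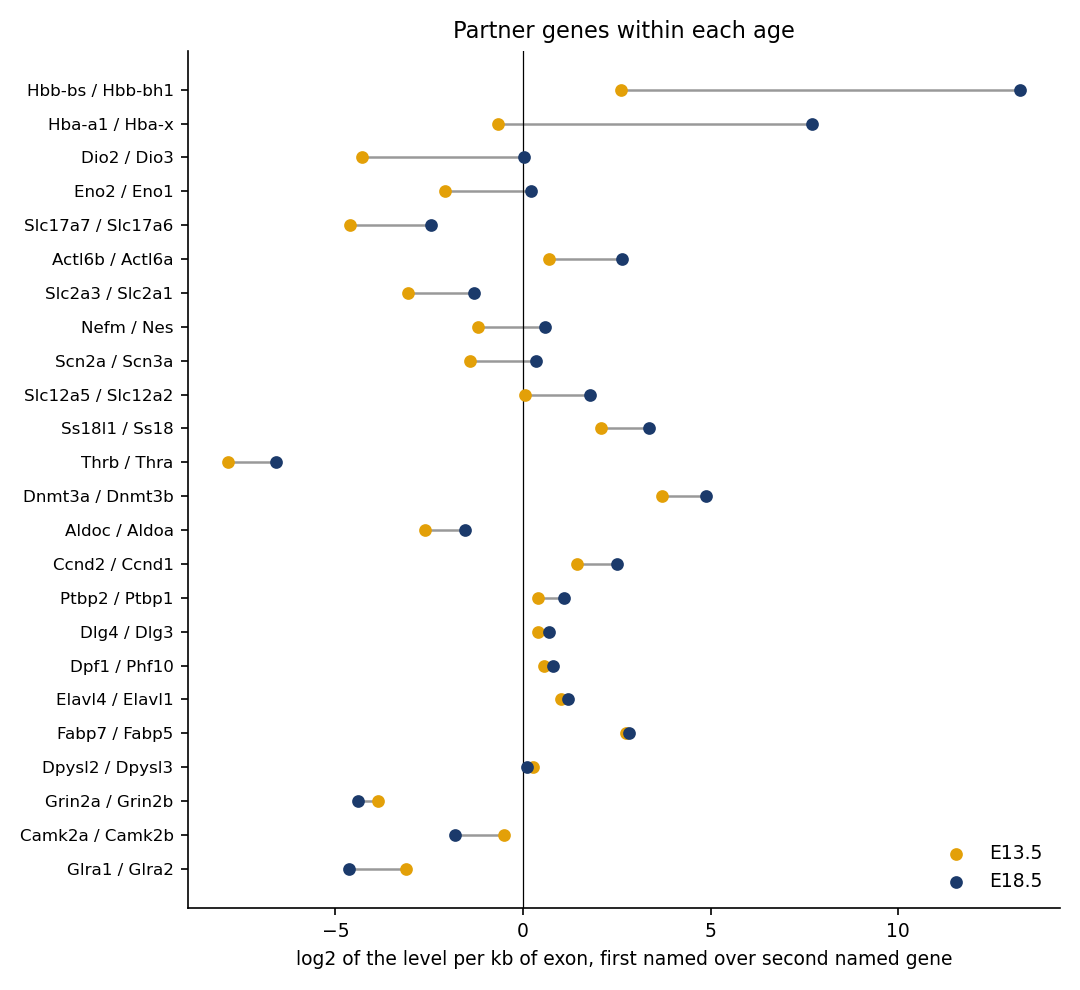
Log2 of the ratio of levels per kb of exon (x axis) within each of 24 of the 26 pairs, the first named gene over the second named, at E13.5 (yellow) and E18.5 (dark blue); 0 marks equal levels. Pairs are ordered by the change, from Hbb-bs over Hbb-bh1 at the top (10.64) to Glra1 over Glra2 at the bottom (-1.51).

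Longer genes had higher ratios. Genes of up to 5 kb had a median log2 ratio of -0.16 over 4520 genes, and the median was -0.06 over 4407 genes of 20 to 50 kb and 0.13 over 1462 genes of 100 to 200 kb. For 768 genes of 200 to 500 kb it was 0.40, and for 222 genes longer than 500 kb it was 0.89. Of the longest class 45.9% were higher and 2.70% lower by at least 2-fold, against 11.7% and 10.4% of the shortest class. Of the 222 longest genes 15 belong to a list of synaptic, receptor, channel or cytoskeletal genes, with a median of 1.53, and the other 207 had a median of 0.81. Chosen after their values had been seen, Opcml (1094 at E13.5 and 9456 at E18.5) and Cadm2 (1655 at E13.5 and 10959.9 at E18.5), adhesion molecules of neurons, stood among the highest long genes outside the lists. Adgrv1 had the lowest ratio of the class (4817 at E13.5 and 1192 at E18.5), and Dcc, the netrin receptor of growing axons, was at 19258 at E13.5 and 6615 at E18.5.

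**Figure D5:**
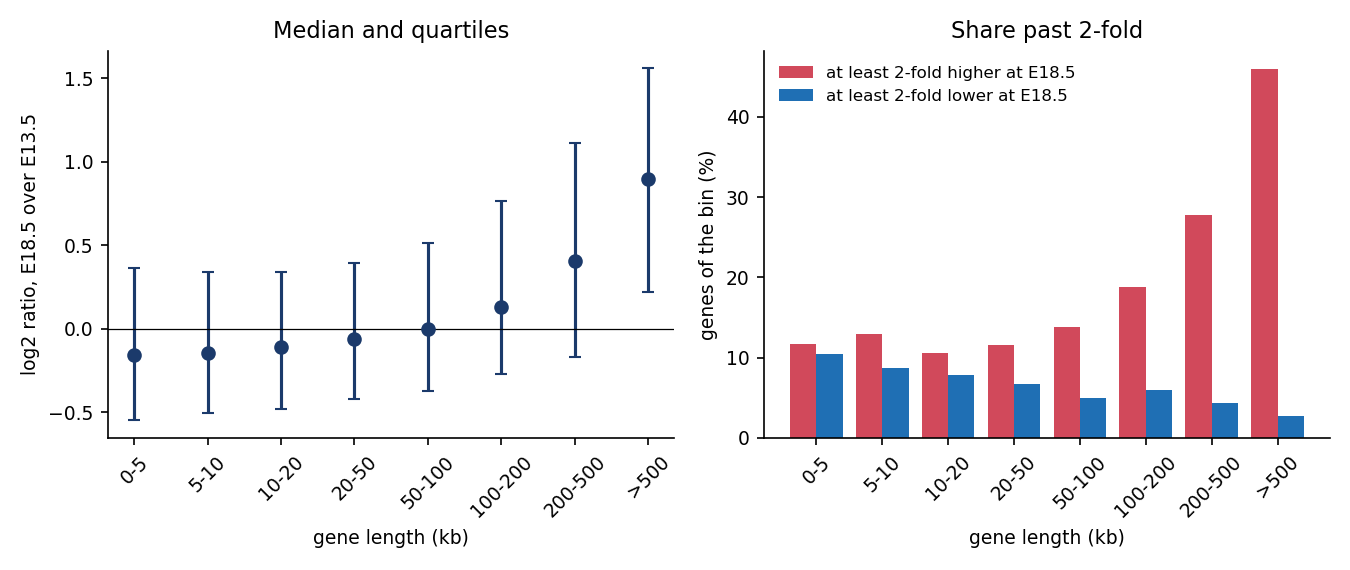
Genes grouped by length (x axis, kb): median log2 ratio of E18.5 over E13.5 with bars from the 25th to the 75th percentile (left) and percent of genes at least 2-fold higher or lower (right). The median goes from -0.16 in the shortest to 0.89 in the longest class, and the share of higher genes from 11.7% to 45.9%.

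Length of the exons alone showed little of this, with a median of -0.23 in the decile of shortest exonic length and 0.00 in that of the longest. By GC content of the exons the median went from 0.08 in the lowest decile to -0.13 in the highest. Protein-coding genes had a median of -0.05 over 15146 genes and lncRNAs one of -0.15 over 2506. Chromosome medians lay between -0.14 for chromosome 17 and 0.05 for chromosome X, apart from the mitochondrial genome with 0.81 over 13 genes. Chromosome 13, which carries the main histone cluster, had the largest share of genes lower by at least 2-fold among the nuclear chromosomes, 13.03%.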

How the data were processed

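RNA of whole brains was sequenced after rRNA depletion in 2 batches, with the Ribo-Zero kit in the first and the NEBNext kit in the second, on different Illumina instruments. The authors trimmed reads with cutadapt 3.1, aligned them to GRCm38 with STAR 2.5.3a, counted genes with HTSeq without strand, adjusted the counts for batch with ComBat-seq and fitted DESeq2 1.30.1 at each age apart. Each deposited table gives, per gene, a signal, the authors' mean normalized count over all fetuses of that age, and this was the measurement used here. The tables' other columns hold the authors' fold changes between genotypes with their errors and p-values and were not used. The depth of each library is not given in the sources used here.

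Both means were scaled to the same total, and genes with a mean of at least 10 at either age were kept. For 179 genes that share a symbol with another, the one with the highest mean was used for lists. Lengths, types and 3′ ends came from GENCODE M21 (GRCm38), in which 41897 of the gene identifiers matched. Promoters and microRNAs came from RefSeq (GRCm38.p6). Levels per kb were divided by the length of the joined exons. The named genes were the members of every pair, the highest and lowest of each list, members against its majority and up to 8 textbook markers, and the 15 protein-coding genes and 5 lncRNAs with the highest and with the lowest ratios above 1000 and 500. The members, 37 fixed lists, 6 lists by name pattern and 26 pairs were chosen with earlier results of these data known. Scripts ran in Python 3.11.15 with pandas 2.3.3, NumPy 2.4.6 and matplotlib 3.10.9 and were tested on simulated data. Alternatives were 3 scalings, 2 pseudocounts, 2 minimums and protein-coding genes alone. Some members counted in the lists and pairs are not reported here by name.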

Additional observations from a re-analysis of the deposited data

How the results depend on the processing

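With single means per age, no library could be left out and no test could be run. No paired analysis was possible because the values carry no replicate numbers. Other scalings shifted all log2 ratios by between -0.03 and 0.07. Over all alternatives the genes higher by at least 2-fold numbered 1759 to 2828 (2621 as reported) and those lower 1054 to 1540 (1482 as reported), with 62.1% to 68.1% of them higher (63.9% as reported). No total reversed. Of 344 recomputed list medians 2 moved, both for T3-responsive genes, to 0.84 with a minimum of 10 at both ages and 1.04 with a minimum of 50, and 1, for pericytes, changed sign near 0. With a minimum of 10 at both ages 5 rather than 12 erythroid and 4 rather than 8 skeletal muscle genes were lower by at least 2-fold, since fewer genes were kept. For skeletal muscle 3 were lower with a minimum of 50, and also 3 after adding 10 to each level, which leaves no gene out. Under each of these settings 2 rather than 4 skeletal muscle genes were higher by at least 2-fold. Counts in 8 other lists moved by at most 3 genes under some setting: neuronal cytoskeleton, neuropeptides, microglia, cilia, collagens, ribosomal proteins, thyroid hormone supply and antigen presentation. Adding 10 to each level, as would matter for genes near 0, gave log2 ratios of 5.62 for Thy1, -10.07 for Hbb-y, -8.24 for Hba-x and 4.60 for B230209E15Rik, and a change of 3.60 for Dio2 against Dio3. For genes over 500 kb the median was 0.91 with a minimum of 100 and 0.89 for protein-coding genes alone.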
